A study of Homo sapiens with 6 samples.

Results

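The progress of a cell from G1 into S phase is controlled by cyclins, the cyclin-dependent kinases (CDKs) that they activate, and the inhibitors that hold these kinases back. D-type cyclins (CCND1, CCND2, and CCND3) bind CDK4 and CDK6, E-type cyclins (CCNE1 and CCNE2) bind CDK2, and both kinds of complex phosphorylate the retinoblastoma protein, which then releases E2F transcription factors. CDKN1B (p27) binds and restrains cyclin-CDK2 complexes, and CDKN2B (p15) binds CDK4 and CDK6. The genes described here are these 10, chosen by name, of 34423 gene names on the array. They were measured by 12 probes of 60 bases, and all 10 symbols matched RefSeq (GRCh38.p14).

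The samples were 3 cell lines of oral squamous cell carcinoma (OSCC), HSC-3, KON, and Ca9-22, each transfected with a control siRNA (siCtrl) or with siDLEU1-2, an siRNA against the long noncoding RNA DLEU1, and harvested after 72 h. A single one-color array was hybridized with 100 ng of RNA per line and siRNA, so the 3 lines were the replicates, and p-values measure the spread between lines, not between cultures of a line. Each group holds 1 transient transfection of each established line, and a single siRNA against DLEU1 was used. The DLEU1 probe (hg19 chr13:50679272-50679331) gave processed signals of 571, 1145, and 741 with siCtrl in HSC-3, KON, and Ca9-22, against 30.7, 87.8, and 66.0 with siDLEU1-2. Its log2 fold change was -4.10, -3.63, and -3.44 in that order, lower in all 3 lines, as the labels state. The 75th percentile of the signal was 200.5 to 257 on the 6 arrays, and 43.0 to 45.7% of the probes were well above background.

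The question was whether these regulators differed after DLEU1 knockdown, and how their levels differed between the lines. Levels are given as processed signal, or as its log2 minus the log2 of the array's 75th percentile (the log2 level). The fold change is siDLEU1-2 over siCtrl within a line on that log2 scale. A level of one probe cannot be set against that of another probe. Of the 12 probes, 10, for 8 genes, were well above background on all 6 arrays and were tested, and those of CCND2 and CDKN2B were not tested.

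The siRNA itself is shown because it is the agent that all comparisons rest on. The capitals in the antisense strand mark its seed, bases 2 to 8, and the stretches of the CCND1 and CDK6 probes carry in capitals the reverse complement of its bases 2 to 7, written as DNA.
siDLEU1-2 antisense: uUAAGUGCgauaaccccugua
siDLEU1-2 sense: cagggguuaucgcacuuaagc
CCND1, hg19 chr11:69468263-69468292, plus strand: atacctcatgcttCACTTAgccatggtgga
CDK6, hg19 chr7:92234454-92234483, minus strand: gtccaatgtgttCACTTAtgtgaaagctaa
The reverse complement of the whole seed, GCACTTA, was in 0 of the 12 member probes and in 0.286% of all tested probes. The shorter CACTTA was in 2 of the 12, those shown, and in 1.23% of all tested probes. A probe covers 60 bases of a transcript, so a match or its lack describes this window only.

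CDK2 fell after DLEU1 knockdown in all 3 lines, and no other member probe passed the test. CDK4 was lower and CDK6 higher in all 3 lines, both just short of the threshold, and the D- and E-type cyclins and CDKN1B did not pass it. By limma's test with Benjamini-Hochberg adjustment, 1 of the 10 tested probes was lower and 0 were higher, while 4.52% of all tested probes were lower and 3.98% higher. At an unadjusted p under 0.05, 3 of the 10 passed (CDK2, CDK4, and CDK6), and so did 29.5% of all tested probes, so this count is near the background. The mean log2 fold change over lines had a median of 0.19 over the 10 probes and 0.0073 over all tested probes. In the bulk RNA, a shift in the number of cells in a phase and a change of RNA per cell cannot be told apart.

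**Figure D1:**
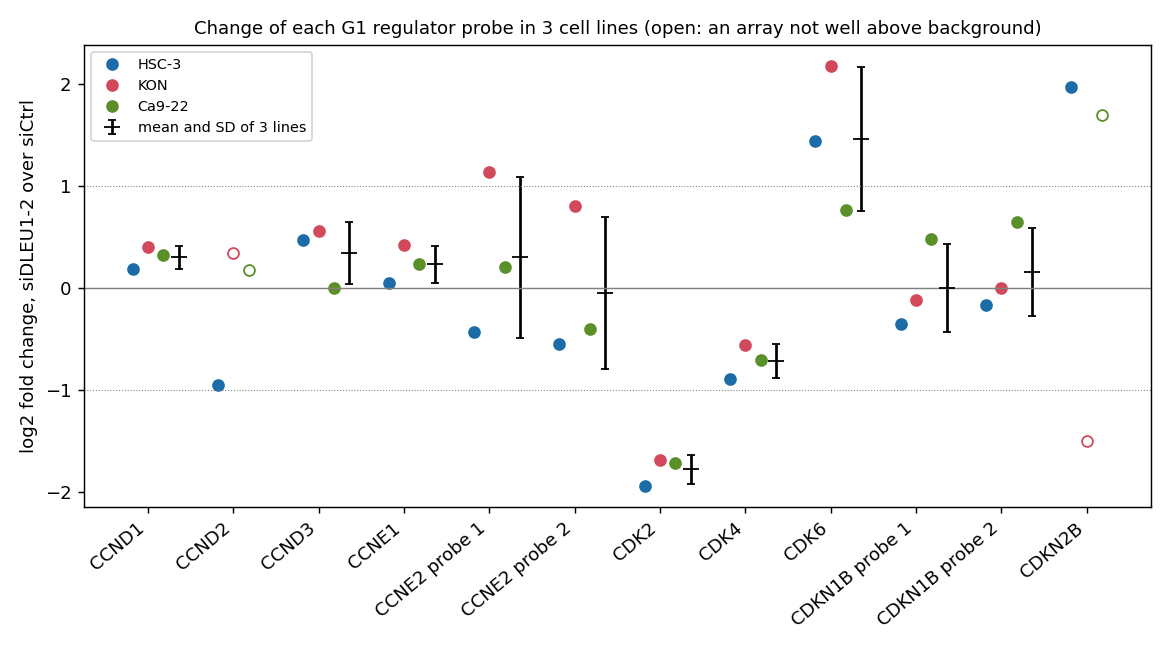
The log2 fold change of siDLEU1-2 over siCtrl (vertical axis) is drawn for the 12 probes, 1 point per cell line, with the mean and SD of the 3 lines in black for tested probes; dotted lines are 2-fold and open points have an array not well above background. CDK2 and CDK4 lie below 0 and CDK6 above 0 in every line, and the points of CCNE2 and CDKN1B lie on both sides of 0.

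CDK2, the kinase partner of cyclin E, was measured by a probe at hg19 chr12:56365789-56365848 that is spotted 10 times on each array. Its signal with siCtrl was 130.2, 174.9, and 179.99 in HSC-3, KON, and Ca9-22, and with siDLEU1-2 it was 31.3, 51.8, and 52.9. All 3 knockdown arrays lay below all 3 control arrays, and the probe stayed well above background on each. The log2 spread of its spots within an array was 0.08 to 0.18 (SD, 9 or 10 spots), which covers error within an array only. CDK2 was 3.84-fold, 3.21-fold, and 3.29-fold lower in HSC-3, KON, and Ca9-22, a log2 fold change averaging -1.78 ± 0.14 (SD over n = 3 lines; limma adjusted p = 0.0227). It was the single member of the 10 tested that differed more than 2-fold in all lines, the paper's rule for altered probe sets. By that rule 2.08% of all tested probes were lower and 2.08% higher, with 0.215% past 2-fold in opposite directions. The lowest signal of any probe well above background was 16.6, 21.3, and 24.9 on the knockdown arrays of HSC-3, KON, and Ca9-22. Under normexp background correction, which was run with an offset of 50, the CDK2 drop was smaller, at a mean of -0.97 on the log2 scale (limma adjusted p = 0.015). Without HSC-3 the adjusted p was 0.0808, without KON 0.103, without Ca9-22 0.0505, and with no filter on dim probes 0.141, with the direction kept. It was 0.272 without the block of cell line and 0.27 by the methods' t-test after adjustment, both with 0 of all probes called. Unadjusted, as the study states it, the methods' t-test called CDK2 (0.000493) and 6.88% of all probes. Over the 6 arrays the probes of other genes most alike to it by Pearson r of the log2 level were those of C3orf75 (0.996), WSB2 (0.991), and DLEU1 itself (0.991), a description over arrays that fall into control and knockdown.

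CDK4, a kinase partner of D-type cyclins, was read at hg19 chr12:58142263-58142322. Its signal was 5186, 11608, and 9006 with siCtrl in HSC-3, KON, and Ca9-22, and 2573, 7507, and 5325 with siDLEU1-2. Each line was lower after knockdown, while the KON knockdown array still lay above the HSC-3 control array, so the groups overlapped. The log2 fold changes were -0.89, -0.56, and -0.71, a mean of -0.72 ± 0.17 (SD, n = 3 lines; limma adjusted p = 0.0538). The adjusted p was 0.0432 with median centering and 0.0451 with quantile normalization, and over the 11 alternatives it ran from 0.0311 to 0.217, past the threshold in 5.

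CDK6, the other kinase partner of D-type cyclins, was read at hg19 chr7:92234443-92234502. It gave 2591, 3958, and 2122 with siCtrl and 6446, 17022, and 3484 with siDLEU1-2 in the same order of lines. Each line was higher after knockdown, KON most and Ca9-22 least, and the Ca9-22 knockdown array lay below the KON control array. The fold was 2.70, 4.52, and 1.70, a log2 fold change averaging 1.46 ± 0.71 (SD over n = 3 lines; limma adjusted p = 0.0541). The adjusted p ran from 0.0383 to 0.208 over the 11 alternatives, past the threshold in 3, and the mean was 1.10 without KON and 1.80 without Ca9-22.

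The change of CDK6 minus the change of CDK4, which a single factor per array cannot move, was 2.33, 2.73, and 1.47 on the log2 scale for HSC-3, KON, and Ca9-22, a mean of 2.18 ± 0.64 (SD, n = 3 lines). It was above 0 in all 3 lines, which follows from CDK6 being higher and CDK4 lower in each. It was computed after the values had been seen and was not tested. CDK2, CDK4, CDK6, and CCND1 each had the same sign in all lines under all 7 ways of scaling or background correction.

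**Figure D2:**
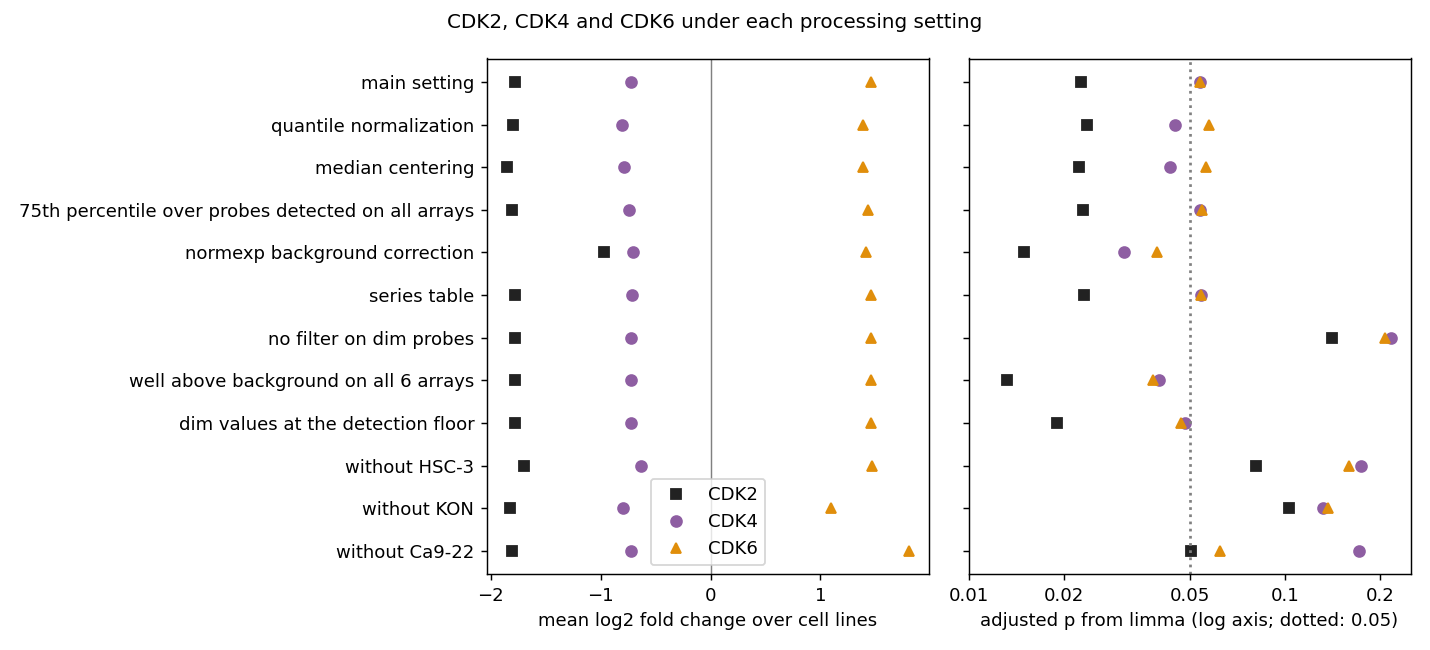
The mean log2 fold change over lines (left) and the limma adjusted p on a log axis (right) of CDK2, CDK4, and CDK6 are drawn for the main setting and the 11 alternatives. All points of CDK2 and CDK4 lie below 0 and all of CDK6 above 0, and the adjusted p of CDK4 and CDK6 falls on either side of 0.05.

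CCND1 (cyclin D1, hg19 chr11:69468233-69468292), the D-type cyclin that growth signals induce, had a signal of 2034, 1858, and 2077 with siCtrl and 2122, 2334, and 2502 with siDLEU1-2 in HSC-3, KON, and Ca9-22. The knockdown arrays all lay above the control arrays, with log2 fold changes of 0.18, 0.40, and 0.32. The mean of 0.30 ± 0.11 (SD, n = 3 lines) did not pass the test (adjusted p = 0.231).

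CCND3 (cyclin D3, hg19 chr6:41903193-41903252) had log2 changes of 0.47, 0.56, and -0.002 in the order HSC-3, KON, Ca9-22, 0.34 ± 0.30 on average (SD, n = 3 lines; adjusted p = 0.269). CCND3 averaged 0.28 without HSC-3, 0.23 without KON, and 0.51 without Ca9-22. Its log2 level ran from 0.76 on the HSC-3 control array to 3.76 on the KON knockdown array, and the groups overlapped.

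CCND2 (cyclin D2, hg19 chr12:4414040-4414099) was well above background in HSC-3 only. There its signal was 7949.7 with siCtrl and 3791 with siDLEU1-2, a log2 fold change of -0.95 from 1 array each, with no replicate. In KON it was 4.66 and 5.6, and in Ca9-22 5.97 and 6.5, not well above background on any of these 4 arrays, and no fold is given for these lines. Over both arrays of a line, CCND2 was at least 337-fold higher in HSC-3 than in KON and at least 271-fold higher than in Ca9-22. These bounds set the mean log2 level in HSC-3 against the lowest signal of any probe well above background on the dim arrays. In the fit without the filter on dim probes, the adjusted p of the difference was 0.00605 for KON and 0.00593 for Ca9-22. These p-values use the readings of KON and Ca9-22 that were not well above background, so they do not measure the size of the difference.

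Of the E-type cyclins, neither CCNE1 nor CCNE2 passed the test. CCNE1 (cyclin E1, hg19 chr19:30315106-30315165) gave 295, 3389.7, and 1709 with siCtrl and 282, 4299, and 1933 with siDLEU1-2 in HSC-3, KON, and Ca9-22. Its log2 fold changes of 0.05, 0.41, and 0.23 had a mean of 0.23 ± 0.18 (SD, n = 3 lines; adjusted p = 0.362), which was 0.14 without KON.

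CCNE2 (cyclin E2) was read by 2 probes, given in the order HSC-3, KON, Ca9-22. The first (hg19 chr8:95894361-95894420) had log2 fold changes of -0.44, 1.13, and 0.20 in this order, with an average of 0.30 ± 0.79 (SD, n = 3 lines; adjusted p = 0.588). The second (hg19 chr8:95892618-95892677) had -0.55, 0.80, and -0.41, with a mean of -0.05 ± 0.74 (adjusted p = 0.935). Both probes were higher in KON and lower in HSC-3, and they differed in sign in Ca9-22.

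CDKN1B was also read by 2 probes, and neither passed the test. The first (hg19 chr12:12871119-12871178) had log2 fold changes of -0.36, -0.12, and 0.48 in HSC-3, KON, and Ca9-22 (mean -0.0025 ± 0.43, SD, n = 3 lines; adjusted p = 0.995). The second (hg19 chr12:12874940-12874999), spotted 10 times, had -0.17, -0.0063, and 0.64 (mean 0.16 ± 0.43; adjusted p = 0.662). Ca9-22 was the line in which both were higher after knockdown.

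CDKN2B (hg19 chr9:22008979-22009038) was well above background on 3 of the 6 arrays. In HSC-3 its signal was 95.1 with siCtrl and 343 with siDLEU1-2, which is 3.91-fold higher from 1 array each. In Ca9-22 it was 17.9, not well above background, with siCtrl and 55.8 with siDLEU1-2, which is at least 2.49-fold higher, again from 1 array each. These folds are of the main setting. Under normexp the log2 fold change of CDKN2B was smaller, at 1.45 in HSC-3 and 0.625 in Ca9-22. In KON the CDKN2B signal was 17.2 and 5.76, not well above background on both arrays, so its change there is not known. HSC-3 was at least 11.1-fold above KON over both arrays of each line, with an adjusted p of 0.0660 for that difference in the fit without the filter on dim probes. This p-value too uses KON readings that were not well above background.

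**Figure D3:**
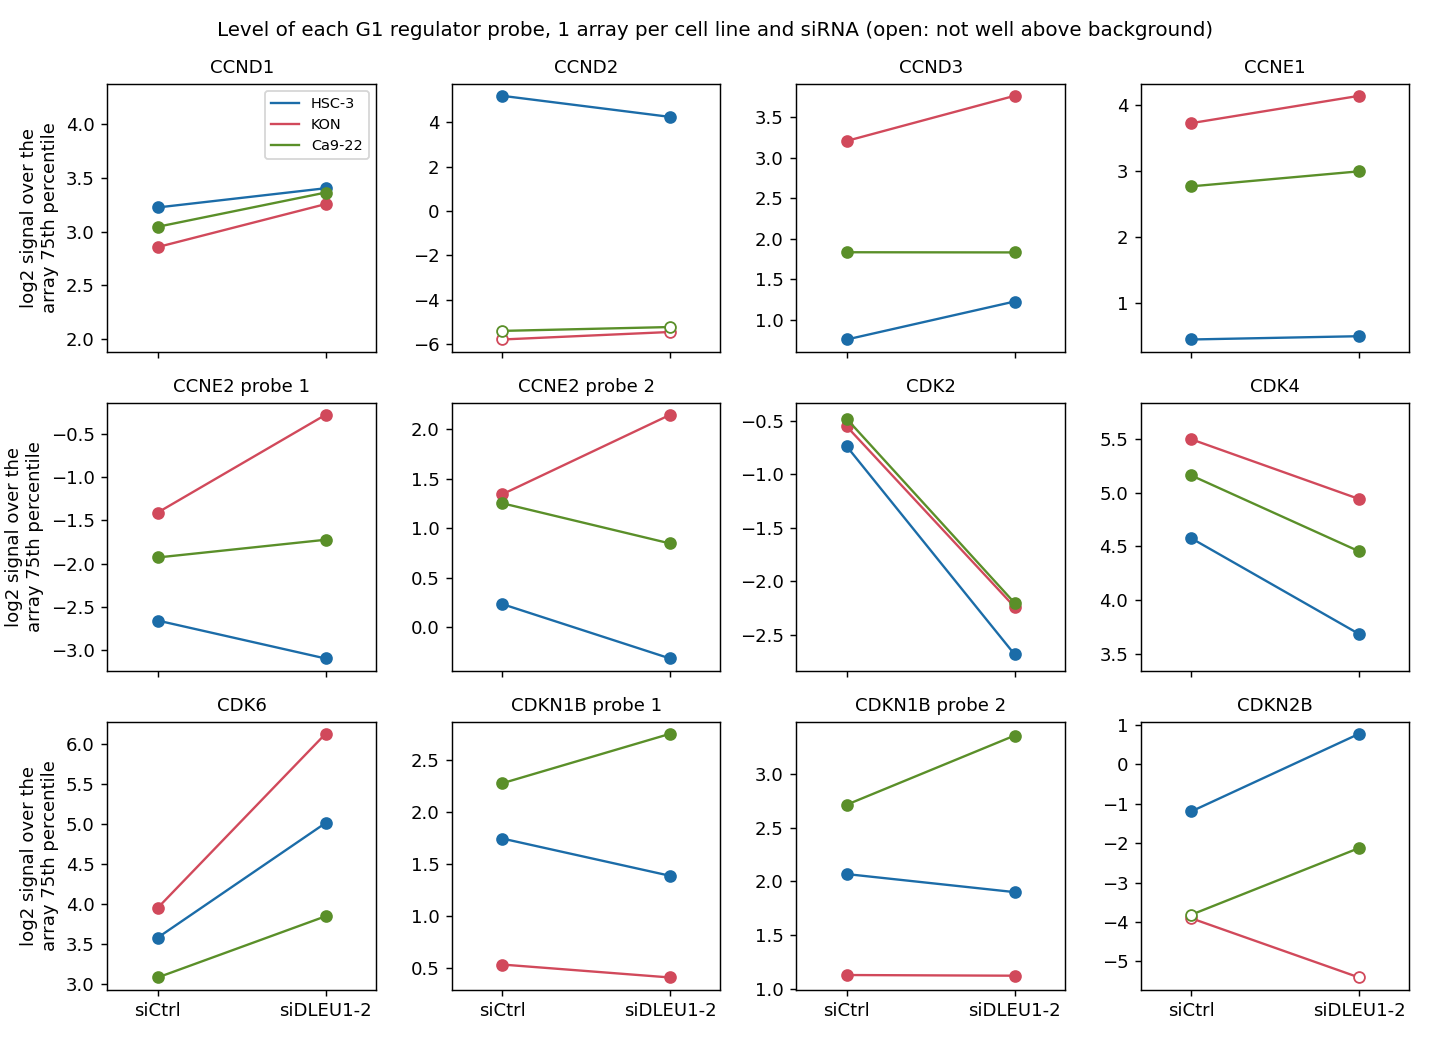
The log2 level over the array's 75th percentile is drawn for each of the 12 probes in its own panel with its own axis, 1 point per array, lines joining siCtrl and siDLEU1-2 of a cell line, and open points not well above background. The 3 lines fall together for CDK2, keep their order for CDK4 and CDK6, and stay apart at both siRNAs for CCND3, CCNE1, and CDKN1B.

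In limma's F test with the siRNA as a covariate, 8 of the 10 tested probes (6 of 8 genes) differed between lines, where 53.8% of all tested probes did, and CCND1 (adjusted p = 0.419) and CDK2 (adjusted p = 0.207) did not pass it. The count was 4 of 10 with cell line as the only term, where 25.2% of all probes differed, and 5 of 12 with no filter on dim probes, where 16.3% did. CCND3, CCNE1, and CDKN1B passed in all 3 of these fits. Between KON and HSC-3, 6 of the 10 differed, where 36.2% of all did. Between Ca9-22 and HSC-3 it was 5 of the 10, where 36.6% of all did, and between Ca9-22 and KON also 5, where 33.2% of all did. Each line gave 2 arrays, 1 with each siRNA, so these p-values measure the spread of the 2 arrays of a line around the common siRNA term.

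CCNE1 had the order KON, Ca9-22, HSC-3, at mean log2 levels of 3.93, 2.88, and 0.47. All neighbors in this order differed, with KON 3.46 ± 0.18 (SE) above HSC-3 (adjusted p = 0.00456), Ca9-22 2.41 ± 0.18 above HSC-3 (adjusted p = 0.00519), and Ca9-22 minus KON -1.05 ± 0.18 (adjusted p = 0.0173). CCND3 had the same order at 3.48, 1.83, and 0.99, and its neighbors differed too (adjusted p = 0.0105 for Ca9-22 and KON, 0.0387 for Ca9-22 and HSC-3). CDK4 had this order as well, at 5.22, 4.81, and 4.13. KON lay 1.09 ± 0.18 (SE) above HSC-3 (adjusted p = 0.0148), and the difference of KON and Ca9-22 did not pass the test (adjusted p = 0.138).

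Both CCNE2 probes were highest in KON and lowest in HSC-3, and of the 3 pairs of lines KON and HSC-3 alone passed the test (2.03 ± 0.40 and 1.79 ± 0.38, SE; adjusted p = 0.0214 and 0.0256). CDK6 was highest in KON and lowest in Ca9-22, at mean log2 levels of 5.03 and 3.46 with HSC-3 at 4.29 between them, and Ca9-22 minus KON was -1.58 ± 0.36 (SE; adjusted p = 0.0332). For CDK6 the difference of KON and HSC-3 did not pass limma's test (adjusted p = 0.168). CDKN1B was highest in Ca9-22 and lowest in KON. Its first probe had mean log2 levels of 2.51 in Ca9-22, 1.56 in HSC-3, and 0.47 in KON, with all neighbors different (adjusted p = 0.0449 and 0.0317). On the second probe, at 3.04, 1.98, and 1.12, HSC-3 and KON did not pass the test (adjusted p = 0.0568). KON thus had the highest mean log2 levels of CCND3, CCNE1, CCNE2, CDK4, and CDK6 and the lowest of CDKN1B, and CDKN2B and CCND2 were not well above background there. The lead of KON over the next line passed the test for CCND3 and CCNE1, and not for CCNE2, CDK4, and CDK6.

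A stretch of the CDK4 promoter is printed because, of the 9 member promoters searched, it was the single one with an E-box, the motif that MYC-family proteins bind. The promoter set used here (GRCh38.p14) held 9 promoters of 6 members. CCND1, CCND2, CCNE2, and CDK2 had no entry in it and were not searched. The 250 bases before each start were searched on both strands for the E-box CACGTG, the GC box GGGCGG, and the E2F sites TTTGGCGC and TTTCGCGC. The stretch runs from 225 to 86 bases before the start, with E-boxes in capitals.
CDK4, GRCh38.p14 chr12:57752396-57752535, minus strand: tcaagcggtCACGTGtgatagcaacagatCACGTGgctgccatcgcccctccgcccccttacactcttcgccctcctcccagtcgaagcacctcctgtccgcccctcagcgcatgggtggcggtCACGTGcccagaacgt
Its 3 E-boxes begin 216, 196, and 101 bases before the start, and 6.34% of the 35116 promoters in the set hold at least 1. The GC box was present 7 times for CCNE1, 3 times for CDK4, and at least 1 time in a promoter of each of CCND3, CDK6, CDKN1B, and CDKN2B, with 42.6% of all promoters holding it. The E2F sites were in none of the 9, and in 0.55% and 0.439% of all promoters. These matches describe letters in a window, not binding.

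The other genes of the G1 pathway were described from 6 lists of 55 genes, of which 51 were tested, by 70 probes. Of these 70, 1 was called higher (1.43%) and 5 lower (7.14%), against the shares over all tested probes given above. None of these 6 calls, which are named in what follows, held with any 1 of the 3 lines left out, with no filter on dim probes, or without the block of cell line. Among the other CDK inhibitors, 0 of 4 tested probes were called. CDKN1A (p21) had log2 fold changes of 0.04, 0.58, and 1.14 in HSC-3, KON, and Ca9-22 (adjusted p = 0.199), and CDKN2C (p18) had -1.76, 0.19, and -0.91 (adjusted p = 0.241). CDKN1C (p57) was not tested, as it was not well above background in Ca9-22. It went opposite ways in the other 2 lines, from 1 array each. Its signal was 509 with siCtrl and 374 with siDLEU1-2 in HSC-3, and 311 and 2975 in KON.

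Of 16 tested probes of pocket proteins and E2F factors, 1 was called higher and 1 lower, and 7 of the 16 had a mean log2 fold change above 0. E2F3, an activating E2F, had a signal of 717, 1636, and 979 with siCtrl and 1199.6, 3367, and 1566 with siDLEU1-2 on one of its 2 probes, a log2 fold change averaging 0.90 ± 0.20 (SD over n = 3 lines; adjusted p = 0.0393). Its other probe, at a mean of 0.67 ± 0.43, did not pass (adjusted p = 0.119). RBL2 (p130), a pocket protein of resting cells, had 826, 677, and 837 with siCtrl and 420.4, 229.7, and 461 with siDLEU1-2, a mean of -1.05 ± 0.38 (adjusted p = 0.0469). RB1 itself had -0.56, -0.60, and -0.47 in the 3 lines (adjusted p = 0.0761).

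Of 14 tested probes of genes that activate CDKs or degrade cyclins and inhibitors, 2 were called lower and 0 higher. The mean log2 fold change was above 0 in 9 of the 14. CCNH, the cyclin of the CDK-activating kinase, had a log2 fold change averaging -0.98 ± 0.21 (SD over n = 3 lines; adjusted p = 0.035), with -0.76, -1.18, and -1.01 in the 3 lines. CDK7, its kinase, had 0.28, 0.40, and 0.69 (adjusted p = 0.132). FBXW7, the ubiquitin ligase subunit that targets cyclin E, had a mean of -1.05 ± 0.23 (adjusted p = 0.0331), with -1.07, -0.81, and -1.27. SKP2, the ligase subunit that targets CDKN1B, had 0.31, 1.63, and 1.32 (adjusted p = 0.0897).

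Of 18 tested probes of G1/S genes driven by E2F, 2 were called lower and 0 higher. The mean log2 fold change was above 0 in 14 of the 18, as it was in 50.8% of all tested probes. Both calls were of MCM7, a subunit of the replicative helicase. Its first probe had 11109, 45249.7, and 18119.8 with siCtrl and 5036, 21478, and 7195 with siDLEU1-2, and both probes were more than 2-fold lower in all 3 lines. The mean log2 fold changes were -1.10 ± 0.16 and -1.20 ± 0.23 (SD, n = 3 lines; adjusted p = 0.0297 and 0.0298). The other subunits MCM2, MCM3, MCM4, MCM5, and MCM6 had means from 0.21 to 0.81 with no call, and CDC6, a loader of the helicase, had 1.32 ± 0.63 (adjusted p = 0.0559). In all 18 probes KON had the highest log2 fold change of the 3 lines, as it did in 35.9% of all tested probes. The count was 5 of 5 for later phases, 8 of 14 for activation and turnover, 9 of 16 for pocket proteins and E2F, 2 of 4 for the other CDK inhibitors, and 5 of 13 for upstream regulators. This difference between lines was not tested. Of 13 tested probes of upstream regulators 0 were called, MYC among them with -0.39, -0.14, and -0.43 (adjusted p = 0.227). Of 5 tested probes of cyclins and CDKs of later phases 0 were called.

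**Figure D4:**
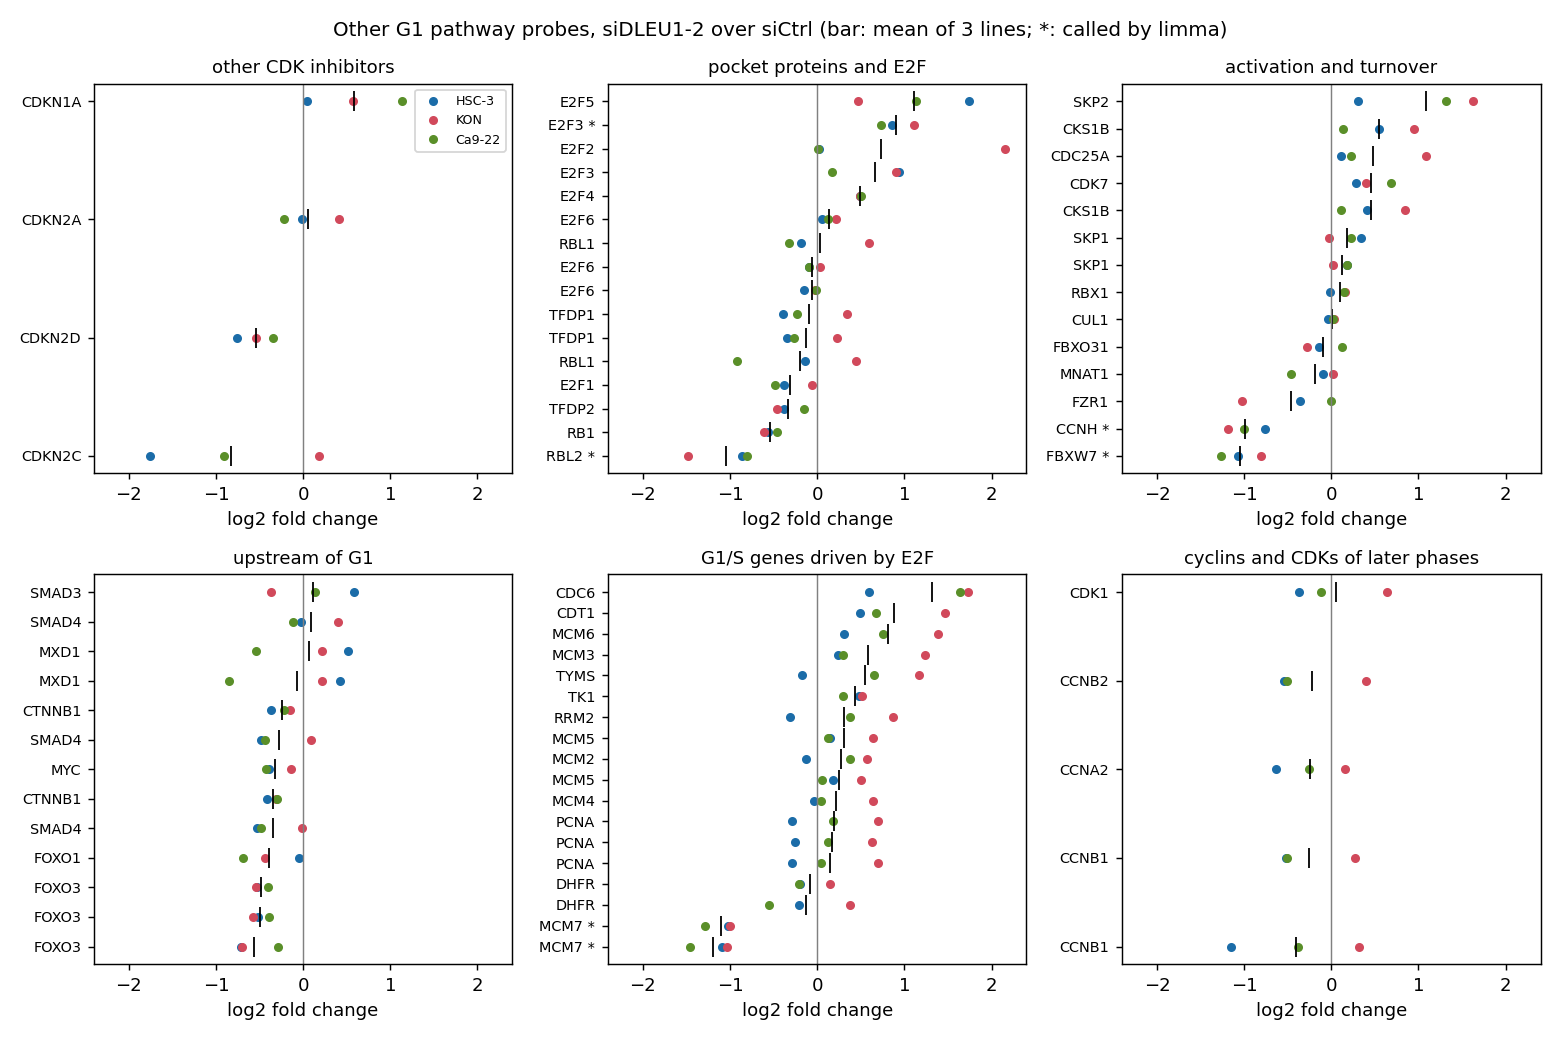
The log2 fold change of siDLEU1-2 over siCtrl (horizontal axis) of every tested probe of the 6 pathway lists is drawn with 1 point per cell line and a bar at their mean; an asterisk marks a probe called by limma. Both MCM7 probes lie below -1 in all lines, apart from the other G1/S genes, in which the KON point is the one farthest to the right.

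The lines were checked against markers of squamous epithelium, (keratins, PKP1, SFN, TP63, CDH1, EPCAM), where 11 of 13 probes passed as well above background on each of the 6 arrays, while the TP63 probe and 1 KRT14 probe did so on 5. Of these 13, limma called 5 lower after knockdown and 1, CDH1, higher, against 4.52% and 3.98% of all tested probes. The mean log2 fold change was above 0 in 5 of the 13. The summed signal of the 13 was 110900 to 311600 with siCtrl and 96240 to 164100 with siDLEU1-2. Of 22 probes of fibroblast, endothelium, and leukocyte markers, 12 were not well above background on any array and 2 were on all. COL1A1 rose (mean log2 fold change 1.45, limma adjusted p = 0.0423), and CD68 fell (-1.39, adjusted p = 0.0278). The summed signal with siCtrl and with siDLEU1-2 was 167 to 233.5 and 425.7 to 592.5 for fibroblast, 80.2 to 205.6 and 118.6 to 433 for endothelium, and 232.4 to 1287 and 233.9 to 448 for leukocyte markers. The part of these marker changes in the values of the G1 regulators was not tested.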

How the data were processed

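RNA of 3 OSCC cell lines with siCtrl or siDLEU1-2 was measured on 6 one-color Agilent arrays on 1 slide. The authors deposited 1 scanner file per array from Feature Extraction 10.7.3.1 (10.7 in the submitters' processing notes), with an intensity per spot on a linear scale, background-subtracted and not normalized between arrays. Here, outlier spots were left out, spots of a probe were averaged, and log2 minus the array's 75th percentile was taken. Of 50599 probes, the 19956 that every line showed well above background with siCtrl, siDLEU1-2, or both were tested with limma 3.58.1 in R 4.3.3, siRNA and cell line as terms, Benjamini-Hochberg adjustment, and a threshold of 0.05. Cell line served as the block, since control and knockdown shared it, and deviations within a line correlated at 0.83, 0.81, and 0.82. The number of arrays limits the precision. All member probes were named, with pathway genes that had a called probe and a few further ones chosen after their values were seen. Members and lists were chosen with earlier results of these data known. On simulated arrays with the same log2 change of 1.5 in every line, limma called 182 of 200 changed probes and 9 others. Changes that differ between lines were not simulated. Other scalings, filters, left-out lines, and the methods' t-test were tried.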

Additional observations from a re-analysis of the deposited data

Results flagged for a closer look

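For 5 tested probes the log2 fold change had opposite signs in different cell lines, each with 1 array per line and siRNA, and the difference between lines was not tested. The distance from the highest to the lowest line was 1.57 for the first CCNE2 probe and 1.35 for the second, with KON highest and HSC-3 lowest on both, and 0.83 and 1.12 under normexp, where HSC-3 was at -0.0509 on the first. For CDKN1B it was 0.835 on the first probe and 0.81 on the second, with Ca9-22 highest and HSC-3 lowest on both. For CCND3 it was 0.56, with KON highest and Ca9-22, at -0.002, lowest, and in 4 of 7 ways of scaling or background correction its sign was the same in all lines.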

How the results depend on the processing

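With 3 pairs of arrays, calls depended on the setting. The number of member probes called (1, CDK2) was 2 with quantile normalization and with median centering, 3 with normexp background correction, with all 6 arrays required above background, and with dim values at the detection floor. Of all tested probes, 8.5% were called in the main setting, 8.26% and 8.56% in the first 2 of these, and 11.6%, 11.4%, and 9.73% in the last 3. It was 0 with no filter on dim probes, where 50544 probes were tested, of which 0 were called and 6816 had an unadjusted p under 0.05. Without the replicate block of cell line it was 0, with 2 members and 6.8% of all probes at an unadjusted p under 0.05, and it was 0 to 0 when 1 line was left out. Over all probes 0 were called without the block, without HSC-3, and without KON, and 244 without Ca9-22, so these zeros are not particular to the members. By the methods' t-test it was 0 after Benjamini-Hochberg adjustment. Members over 2-fold in all lines (1) numbered 0 with normexp, 2 with no filter (CDKN2B, not readable in KON, is the other), 2 at a 1.5-fold threshold, and 1 to 2 with a line left out. The share of all probes was 4.38% in the main setting, and 2%, 2.41%, 11.8%, and 6.55 to 6.9% in these. Members that differ between lines (8) numbered 5 with no filter and 4 with cell line as the only term, against 16.3% and 25.2% of all probes. Pathway probes called (6) numbered 0 with no filter, with each line left out, with no replicate block, and by the methods' t-test after adjustment, and 3 of 70 by that t-test unadjusted, which called 6.88% of all probes. They numbered 9 with normexp and 7 with all 6 arrays required or dim values at the floor. The mean log2 fold change of the first CDKN1B probe turned positive with quantile normalization (3e-04) and in the series table (0.0013), and was -0.24 to 0.18 with a line left out. With a line left out it was -0.0872 to 0.32 for the second CDKN1B probe, -0.12 to 0.67 for the first CCNE2 probe, and -0.48 to 0.20 for the second. The mean over lines of the other 6 tested member probes kept its direction under the alternatives run. Within a line, CCND3 in Ca9-22 (-0.002) was above 0 in 4 of 7 settings, CCNE1 in HSC-3 (0.05) was -0.0165 with the percentile over probes detected on all arrays, and the second CDKN1B probe in KON (-0.0063) was 0.0198 with quantile normalization. The signs of CCND2 and CDKN2B in lines where both arrays were not well above background are not readable. Apart from the number of arrays, tests, and probes that a setting itself changes, the cause of these shifts was not tested.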
